A study of Mus musculus with 9 samples.

Results

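The NF-kappaB subunits and their feedback inhibitors were followed here as 10 genes. They were chosen by name, with earlier results of these data known, and looked up by gene symbol in the deposited annotation. The subunits were Rel, Rela, Relb, Nfkb1 and Nfkb2, and the inhibitors were Nfkbia, Nfkbid, Nfkbiz, Tnfaip3 and Bcl3. Each symbol matched 1 identifier among 55421 genes, and all 10 were among the 15711 genes with enough counts to be tested. RNA was sequenced after ribosomal RNA depletion from spleen CD8+ T cells of Pmel Ly5.1 mice, a cross that carries a transgenic T-cell receptor and the Ly5.1 congenic marker in every group. MitoPositive cells had been kept for 36 h together with DM5, immortalised bone marrow stromal cells of BL6 origin whose mitochondria were labelled with DsRed, and were sorted as DsRed-positive. MitoNegative cells came from the same kind of co-culture and were sorted as DsRed-negative. Monoculture cells were T cells kept without stromal cells. Each group had 3 libraries, lettered B, C and D. The stromal cells were a single line, the labels do not say whether animals were pooled or give their age, and the titles carry a time of 0 h that the labels do not explain.

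NF-kappaB is a family of dimeric transcription factors that inhibitor proteins hold in the cytoplasm until a kinase complex has them destroyed. Rela, Rel and Nfkb1 serve the fast canonical branch, which T-cell receptor and costimulatory signals use, while Relb and the precursor encoded by Nfkb2 serve the slower non-canonical branch downstream of several TNF-family receptors. Several inhibitors are themselves NF-kappaB target genes, so that the pathway restrains its own activity. Monoculture was the control in which the T cells met no stromal cells, and the sorted groups differed in whether the labelled mitochondria were detected in the T cell.

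Total counts per library were between 53546152 and 74722832. The 13 markers of CD8 T cells summed to between 10996 and 11457 CPM (counts scaled to library size) in MitoPositive, between 10670 and 11170 CPM in MitoNegative and between 12031 and 13804 CPM in monoculture libraries, with none of them at 0. Of these 13, 9 were lower than in monoculture in MitoPositive and 10 in MitoNegative cells, Cd5 the most, and none was higher. Cd8a was not called in either group. The 15 stromal markers summed to between 11.2 and 26.5 CPM in MitoPositive, between 10.7 and 28.0 CPM in MitoNegative and between 5.99 and 7.31 CPM in monoculture libraries. Most of the monoculture sum was Thbs1, which averaged 5.63 CPM there and 4.51 CPM in each co-cultured group and was not called. Of the 12 stromal markers tested, 10 were higher than in monoculture in each co-cultured group. Col1a2, Col3a1, Sparc, Dcn, Postn, Pdgfra, Lum and Cxcl12 were at 0 in monoculture. The 12 B cell markers ran the other way, with sums between 284 and 320 CPM in MitoPositive, between 376 and 472 CPM in MitoNegative and between 718 and 791 CPM in monoculture libraries, and 10 of the 12 were lower than in monoculture in each co-cultured group. Most of these sums was Ighm, which averaged 271 CPM in MitoPositive, 388 CPM in MitoNegative and 630 CPM in monoculture cells. Between the sorted groups Ighm was the 1 B cell marker called, as lower in MitoPositive, and the other 11 were not. The 12 myeloid markers summed to at most 8.45 CPM in any library, with between 6.17 and 7.46 CPM in MitoPositive, between 5.07 and 8.45 CPM in MitoNegative and between 3.98 and 5.17 CPM in monoculture libraries. Most of these sums was Cd68, which averaged 6.03 CPM in MitoPositive, 5.84 CPM in MitoNegative and 2.72 CPM in monoculture cells. Of the 6 tested, Cd68 and Cd14 were higher and Adgre1 and Lyz2 lower in MitoPositive cells than in monoculture. In MitoNegative cells Cd68 was higher and Adgre1 lower. The 11 dendritic cell markers summed to between 60.9 and 87.5 CPM in MitoPositive, between 56.0 and 84.2 CPM in MitoNegative and between 124 and 188 CPM in monoculture libraries. They did not move as 1: of the 8 tested, H2-Aa, H2-Eb1 and Cd74 were lower in MitoPositive cells than in monoculture. Zbtb46 was higher and the other 4 were not called. In MitoNegative cells 4 were lower, and 1, again Zbtb46, was higher. The 5 CD4 T cell markers summed to between 332 and 349 CPM in MitoPositive, between 275 and 305 CPM in MitoNegative and between 244 and 297 CPM in monoculture libraries. Most of that sum was Ctla4, which averaged 284 CPM in MitoPositive, 241 CPM in MitoNegative and 223 CPM in monoculture cells. Cd4 itself ran the other way, averaging 0.823 CPM in MitoPositive, 1.10 CPM in MitoNegative and 2.06 CPM in monoculture cells. The 6 NK cell markers summed to between 16.3 and 18.5 CPM in MitoPositive, between 19.9 and 26.8 CPM in MitoNegative and between 20.2 and 30.8 CPM in monoculture libraries. Of the 5 tested, Gzma was higher and Eomes, Klre1 and Klrb1c were lower in MitoPositive cells than in monoculture. In MitoNegative cells Gzma was higher and Eomes lower. The part of these marker levels in the values below was not tested. In bulk samples a change in how many cells express a gene and a change in RNA per cell cannot be told apart. Whether letters B, C and D stand for different mice or dishes is not stated, so every p-value reflects the scatter among these libraries alone, which may be technical.

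All 10 genes were well measured, the fewest reads being 528 for Nfkbid in a MitoPositive library and the most 41700 for Nfkb1, also in a MitoPositive library. To compare levels between genes, CPM was divided by the exon length deposited with the counts, giving CPM per kb of exon. On that scale Nfkbia, which encodes the classical cytoplasmic inhibitor IkappaB-alpha, stood highest in every group, at 157 ± 8.66 in MitoPositive, 178 ± 11.8 in MitoNegative and 125 ± 15.8 CPM per kb in monoculture cells (mean ± SD, n = 3 each). In MitoPositive cells Tnfaip3 (48.6 ± 5.10), Nfkb1 (46.2 ± 2.34), Nfkb2 (44.9 ± 3.26) and Rela (40.8 ± 1.78 CPM per kb) followed, and each of these overlapped its neighbour in the order. Bcl3 (30.7 ± 4.49), Relb (18.3 ± 0.522) and Rel (8.39 ± 0.854 CPM per kb) came next in MitoPositive cells without overlapping one another. Rel and Nfkbiz (7.44 ± 0.406 CPM per kb) did overlap, and Nfkbid was lowest, at 3.89 ± 0.388 CPM per kb. In monoculture cells Nfkb1 (46.3 ± 2.15) and Rela (40.5 ± 2.29 CPM per kb) stood above Nfkb2 (24.3 ± 4.41), Tnfaip3 (15.9 ± 1.16) and Bcl3 (12.2 ± 2.31 CPM per kb), with no overlap along that order from Nfkb2 to Bcl3. Relb (10.4 ± 1.01), Rel (8.30 ± 2.06) and Nfkbid (5.44 ± 1.27 CPM per kb) followed, each overlapping the gene before it, and Nfkbiz was lowest, at 3.29 ± 0.500 CPM per kb. The order in MitoNegative cells was that of MitoPositive cells except that Nfkb1 (47.9 ± 1.19) lay above Tnfaip3 (45.8 ± 4.55 CPM per kb), whose ranges overlapped. On that scale Tnfaip3 thus lay beside Rela and Nfkb1 in co-cultured cells and below both in monoculture, and above Rel in every group. The order between genes depends on the deposited length, which was 12061 bases for Nfkb1 and 3072 bases for Rela. Without division by length Nfkb1 stood far above Nfkb2 and Rela, at 557, 206 and 125 CPM in MitoPositive cells.

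The sequences just upstream of 6 of the genes are shown because the motif that NF-kappaB dimers recognise can be looked for there. RefSeq promoter windows (GRCm38.p6, 250 bases before to 50 bases after a transcription start) were found for 7 of the 10 genes, in 12 windows, and none for Relb, Nfkb1 and Nfkbiz. The kappaB consensus, a motif of 10 letters, was searched for on both strands. It occurred in 6 of the 7 genes and in 8 of the 12 windows, and in 5.14% of 27025 genes and 4.51% of 32851 windows over the whole table. The members were chosen as genes of this pathway, several of them known targets, so the counts describe the sequences and test nothing. Matches also lay in Rel and Nfkbid, which did not rise in MitoPositive cells. In the sequences, written 5′ to 3′ along the gene, capitals mark the matches. A match describes letters and is not a measured binding site.
Tnfaip3 promoter, chr10:19015361-19015660, minus strand: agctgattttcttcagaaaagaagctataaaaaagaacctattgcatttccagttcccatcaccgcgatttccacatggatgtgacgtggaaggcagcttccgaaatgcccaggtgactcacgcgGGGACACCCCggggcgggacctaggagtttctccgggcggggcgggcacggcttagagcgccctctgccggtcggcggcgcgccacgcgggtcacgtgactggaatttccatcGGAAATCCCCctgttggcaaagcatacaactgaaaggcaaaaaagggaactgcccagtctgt
Nfkb2 promoter, chr19:46304487-46304786, plus strand: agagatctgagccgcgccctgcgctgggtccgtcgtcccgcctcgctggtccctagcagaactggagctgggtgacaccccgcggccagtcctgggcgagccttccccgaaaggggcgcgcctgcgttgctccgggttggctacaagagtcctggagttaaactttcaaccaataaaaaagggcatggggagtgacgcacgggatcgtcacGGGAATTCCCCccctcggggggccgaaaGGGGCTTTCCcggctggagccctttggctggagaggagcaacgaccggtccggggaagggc
Bcl3 promoter, chr7:19822706-19823005, minus strand: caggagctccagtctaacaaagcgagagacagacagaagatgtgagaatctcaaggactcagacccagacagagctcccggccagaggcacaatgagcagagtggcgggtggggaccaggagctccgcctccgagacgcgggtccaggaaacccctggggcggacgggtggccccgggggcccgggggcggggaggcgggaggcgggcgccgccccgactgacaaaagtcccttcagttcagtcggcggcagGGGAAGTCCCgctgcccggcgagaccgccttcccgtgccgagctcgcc
Nfkbia promoter, chr12:55492598-55492897, minus strand: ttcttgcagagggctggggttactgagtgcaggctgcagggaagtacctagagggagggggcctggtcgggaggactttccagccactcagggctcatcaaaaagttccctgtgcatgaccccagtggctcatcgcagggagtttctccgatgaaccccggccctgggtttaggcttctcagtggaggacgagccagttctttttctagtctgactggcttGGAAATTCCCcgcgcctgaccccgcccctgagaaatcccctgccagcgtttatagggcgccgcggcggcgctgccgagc
Rel promoter, chr11:23770920-23771219, minus strand: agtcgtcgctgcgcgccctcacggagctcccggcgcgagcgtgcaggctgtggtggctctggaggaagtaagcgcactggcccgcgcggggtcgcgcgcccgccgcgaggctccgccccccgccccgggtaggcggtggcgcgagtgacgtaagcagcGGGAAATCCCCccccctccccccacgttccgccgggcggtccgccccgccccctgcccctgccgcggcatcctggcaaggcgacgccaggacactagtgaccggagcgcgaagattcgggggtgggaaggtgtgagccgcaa
Rela promoter, chr19:5637291-5637590, plus strand: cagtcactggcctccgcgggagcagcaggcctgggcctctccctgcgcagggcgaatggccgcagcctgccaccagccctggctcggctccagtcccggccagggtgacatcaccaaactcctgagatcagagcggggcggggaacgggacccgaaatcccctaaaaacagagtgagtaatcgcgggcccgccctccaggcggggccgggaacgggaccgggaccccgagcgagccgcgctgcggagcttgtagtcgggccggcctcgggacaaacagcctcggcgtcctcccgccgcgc

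With the annotated start base counted as 0, the windows shown had matches starting as follows: Tnfaip3 at -125 and -12, Nfkb2 at -39 and -11, Nfkbia at -29, Rel at -92 and Bcl3 at 2. Some matches overlapped or were palindromic: the capital run GGGAAATCCCC of Rel held 3 overlapping matches and the run GGGAATTCCCC of Nfkb2 also held 3. Rela had none in its 300 bases. Of the windows not shown, the second of Nfkb2 had matches at -236 and 10 and the third at -225, that of the third being the same site as the match at 10. The second window of Nfkbid had matches at -226 and -181, and its other windows and the second of Tnfaip3 had none.

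MitoPositive cells were compared with monoculture cells to ask how T cells positive for the stromal label differed from T cells that had met no stromal cells. In them 4 of the 5 genes grouped here as inhibitors rose, Tnfaip3 the most, and 1 of the 5, Nfkbid, fell. The grouping is a label, and whether the pathway was more restrained was not tested. Of the 5 subunit genes the non-canonical pair Relb and Nfkb2 rose, and the canonical Rel, Rela and Nfkb1 did not pass the test. Together 6 of the 10 genes were higher and 1 was lower by edgeR's quasi-likelihood test (adjusted p under 0.05 over 15711 genes). Of all genes tested, 42.2% passed in that comparison, 22.3% as higher and 19.9% as lower. The median log2 fold change was 0.57 over the 10 genes and 0.00 over all genes tested. The same 6 genes were higher and the same 1 lower with no overlap of CPM between the groups, where 51.6% of all genes did not overlap, 27.3% as higher and 24.3% as lower.

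**Figure D1:**
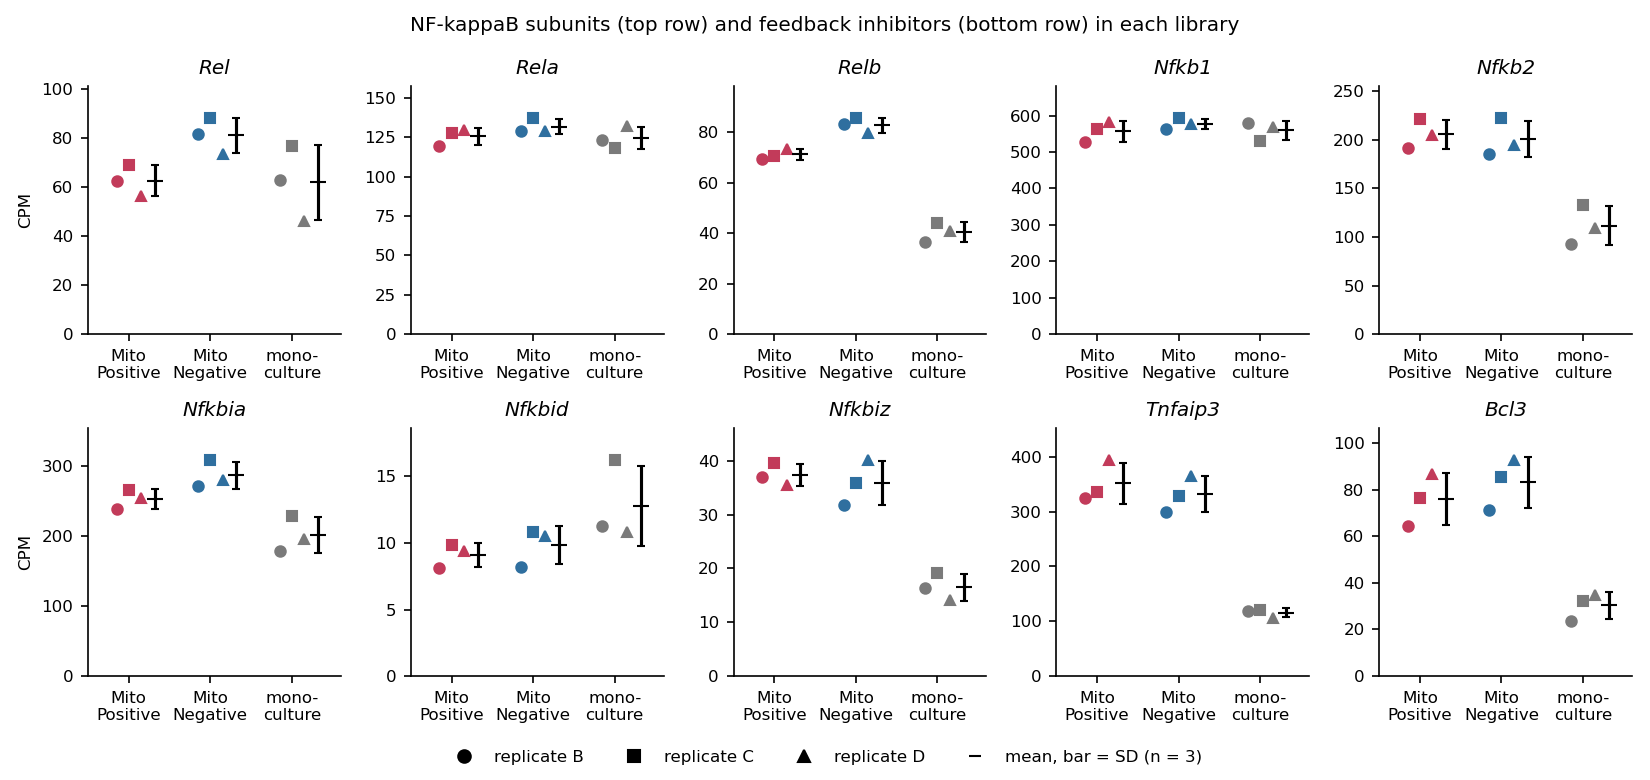
CPM of each gene in each of the 9 libraries, with the subunits in the top row and the feedback inhibitors in the bottom row; symbols give the replicate letter, and the bar beside each group gives its mean and SD (n = 3). Both co-cultured groups sit above monoculture for Relb, Nfkb2, Nfkbia, Nfkbiz, Tnfaip3 and Bcl3, and the groups overlap for Rela and Nfkb1.

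Tnfaip3 (ENSMUSG00000019850.11, minus strand, chr10:19000910-19015657 in GRCm38, the build of all gene coordinates given) encodes A20, an enzyme that edits ubiquitin chains on signalling proteins and so shuts the pathway off. It had 324, 336 and 393 CPM in MitoPositive, 299, 329 and 365 CPM in MitoNegative and 119, 121 and 106 CPM in monoculture libraries B, C and D. Every co-cultured library was far above every monoculture library, and the sorted groups overlapped. It rose 3.05-fold in MitoPositive cells (log2 1.61 ± 0.0953 SE, n = 3 each, edgeR adjusted p = 2.90e-07), the largest rise among the 10 genes.

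Bcl3 (ENSMUSG00000053175.17, minus strand, chr7:19808462-19822770) encodes a nuclear IkappaB-family protein that binds dimers made of the Nfkb1 and Nfkb2 products. It had 64.5, 76.5 and 86.7 CPM in MitoPositive, 71.3, 85.7 and 92.6 CPM in MitoNegative and 23.8, 32.4 and 34.6 CPM in monoculture libraries B, C and D. In all groups B was lowest and D highest, and no co-cultured library came down to the monoculture range. Bcl3 rose 2.51-fold in MitoPositive cells (log2 1.32 ± 0.164 SE, edgeR adjusted p = 0.000237). Reads of its opposite-strand neighbours could not be told apart without strand, but the tested neighbour, Gm16174, reached only 0.303 ± 0.0606 CPM in MitoPositive and 0.556 ± 0.0585 CPM in monoculture cells.

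Nfkbiz (ENSMUSG00000035356.17, minus strand, chr16:55811375-55838899) encodes IkappaB-zeta, another nuclear member of the IkappaB family, which tunes selected target genes. It had 37.0, 39.5 and 35.5 CPM in MitoPositive, 31.8, 35.8 and 40.1 CPM in MitoNegative and 16.3, 19.1 and 14.1 CPM in monoculture libraries B, C and D. The co-cultured libraries overlapped each other and lay above monoculture. The rise in MitoPositive cells was 2.26-fold (log2 1.17 ± 0.111 SE, edgeR adjusted p = 9.47e-06).

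Nfkbia (ENSMUSG00000021025.8, minus strand, chr12:55489410-55492647), a gene known to respond quickly to NF-kappaB activity, moved least among the genes that rose. It had 239, 266 and 254 CPM in MitoPositive, 272, 309 and 281 CPM in MitoNegative and 179, 229 and 196 CPM in monoculture libraries B, C and D. The 3 groups did not overlap, with MitoNegative on top. Nfkbia rose 1.25-fold in MitoPositive cells (log2 0.33 ± 0.0886 SE, edgeR adjusted p = 0.0109), and with the libraries of letter D left out it no longer passed (log2 0.32, edgeR adjusted p = 0.0917).

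Nfkbid (ENSMUSG00000036931.15, plus strand, chr7:30421732-30428746) encodes the nuclear protein IkappaB-NS, which in mouse is induced by T-cell receptor signals. It had 8.11, 9.86 and 9.40 CPM in MitoPositive, 8.23, 10.8 and 10.6 CPM in MitoNegative and 11.2, 16.2 and 10.8 CPM in monoculture libraries B, C and D. MitoPositive libraries lay below all monoculture libraries, monoculture C stood above every other library, and MitoNegative C and monoculture D differed only beyond the digits shown. Nfkbid was 1.40-fold lower in MitoPositive cells (log2 -0.49 ± 0.162 SE, edgeR adjusted p = 0.0308). The call rested on single libraries: without monoculture C the log2 fold change was -0.28 (edgeR adjusted p = 0.141), and it also missed the threshold without MitoPositive B (-0.41, 0.107) and without MitoPositive D (-0.51, 0.0602), each with its adjusted p. Leaving out letter B, C or D gave adjusted p-values between 0.0625 and 0.169.

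Relb (ENSMUSG00000002983.17, minus strand, chr7:19606217-19629438) encodes the DNA-binding partner of the processed Nfkb2 product. It lies 179023 bases from Bcl3 on the same chromosome and strand. Relb had 69.4, 70.6 and 73.4 CPM in MitoPositive, 83.1, 85.4 and 79.6 CPM in MitoNegative and 36.3, 44.1 and 40.9 CPM in monoculture libraries B, C and D. The 3 groups were fully separated, with MitoPositive in the middle. It rose 1.76-fold in MitoPositive cells (log2 0.81 ± 0.0699 SE, edgeR adjusted p = 4.26e-06).

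Nfkb2 (ENSMUSG00000025225.15, plus strand, chr19:46304320-46312385) encodes the precursor that is both an inhibitor of Relb and, once cut, its partner. It had 192, 221 and 205 CPM in MitoPositive, 186, 222 and 195 CPM in MitoNegative and 92.4, 133 and 109 CPM in monoculture libraries B, C and D. The sorted groups overlapped almost completely, and C was highest in every group. It rose 1.85-fold in MitoPositive cells (log2 0.89 ± 0.120 SE, edgeR adjusted p = 0.000192). The opposite-strand gene 4833438C02Rik overlaps Nfkb2, and whether counting used strand is not given in the sources used here. That gene ran the other way, with 19.0 ± 2.17 CPM in MitoPositive and 24.4 ± 1.55 CPM in monoculture cells.

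The canonical subunits did not pass the test, and Rela and Nfkb1 lay at nearly the same level in all groups. Rela (ENSMUSG00000024927.8, plus strand, chr19:5637483-5648130), the main transactivating subunit, had 119, 128 and 130 CPM in MitoPositive, 129, 137 and 129 CPM in MitoNegative and 123, 118 and 132 CPM in monoculture libraries B, C and D. Nfkb1 (ENSMUSG00000028163.17, minus strand, chr3:135584655-135691547), whose product is its usual partner, had 526, 563 and 582 CPM in MitoPositive, 564, 592 and 576 CPM in MitoNegative and 578, 529 and 569 CPM in monoculture libraries. For both genes the groups overlapped. Nfkb1 holds the same-strand gene Gm43430, which reached only 0.447 ± 0.433 CPM in MitoPositive and 0.419 ± 0.178 CPM in monoculture cells. Rela differed by a log2 fold change of 0.01 ± 0.0605 (SE, edgeR adjusted p = 0.903) and Nfkb1 by -0.01 ± 0.0660 (edgeR adjusted p = 0.957) between MitoPositive and monoculture cells.

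Rel (ENSMUSG00000020275.9, minus strand, chr11:23736847-23770970) encodes c-Rel, a subunit prominent in activated lymphocytes. It had 62.3, 69.2 and 56.4 CPM in MitoPositive, 81.8, 88.1 and 73.6 CPM in MitoNegative and 62.8, 76.9 and 46.2 CPM in monoculture libraries B, C and D. Replicate C was highest and D lowest in each group, and monoculture spread widest. Between MitoPositive and monoculture cells its log2 fold change was 0.02 ± 0.168 (SE, edgeR adjusted p = 0.951).

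MitoNegative cells were set against the same 3 monoculture libraries, so the 2 comparisons are not independent of each other. Again 6 of the 10 genes rose: Relb, Nfkb2, Nfkbia, Nfkbiz, Tnfaip3 and Bcl3. Of all genes tested 38.9% passed, 20.6% as higher and 18.3% as lower, and the median log2 fold change was 0.68 over the 10 genes and 0.01 over all genes. Without overlap of CPM, 6 genes were higher and 1, Nfkbid, was lower, against 48.7% of all genes, 25.9% as higher and 22.9% as lower. Tnfaip3 rose 2.88-fold (log2 1.52 ± 0.0951 SE, edgeR adjusted p = 7.99e-07), Bcl3 2.75-fold (1.46 ± 0.164, edgeR adjusted p = 0.000176) and Nfkbiz 2.17-fold (1.12 ± 0.111, edgeR adjusted p = 1.89e-05). Among the subunits Relb rose 2.05-fold (1.03 ± 0.0701, edgeR adjusted p = 1.32e-06) and Nfkb2 1.80-fold (0.85 ± 0.120, edgeR adjusted p = 0.000318). Nfkbia rose 1.42-fold (0.51 ± 0.0887, edgeR adjusted p = 0.000877). The plot of fold changes places these beside the MitoPositive values.

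**Figure D2:**
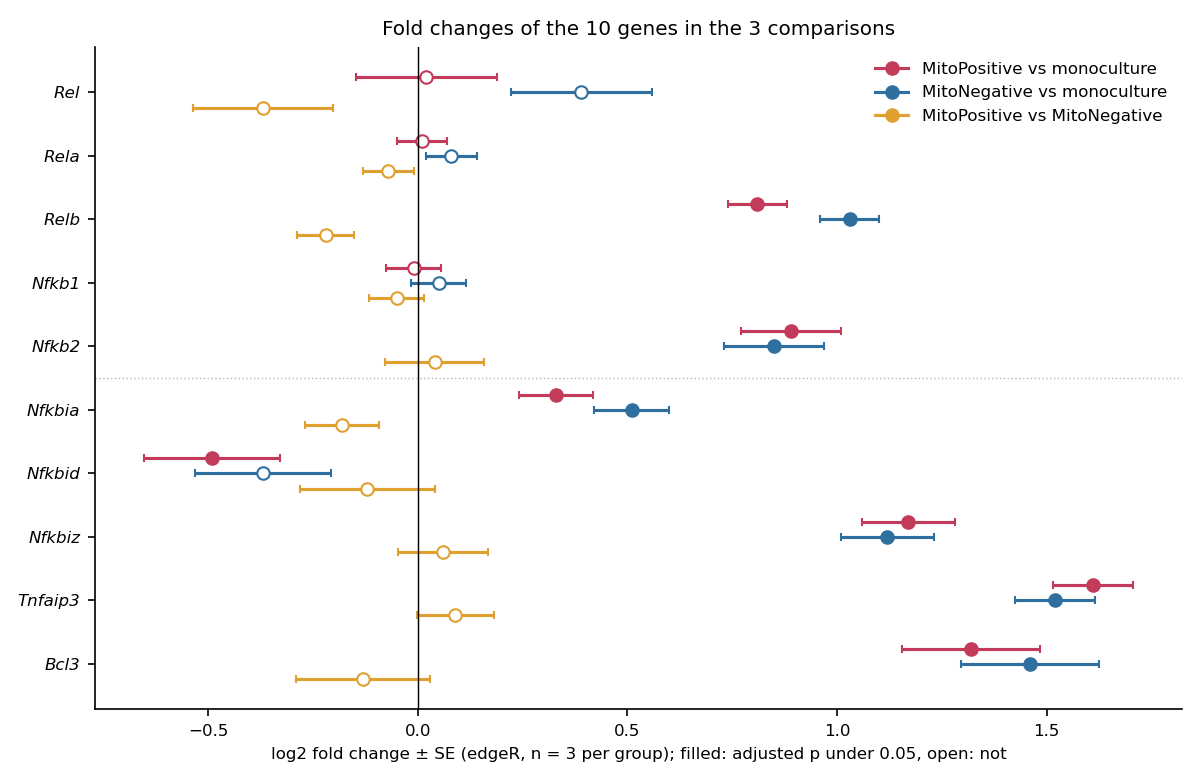
Log2 fold change (horizontal axis) of each gene in the 3 comparisons, with SE bars from edgeR (n = 3 per group); filled points passed an adjusted p of 0.05, and a dotted line parts the subunits above from the inhibitors below. Tnfaip3 lies farthest right, at 1.61 and 1.52, and no point of the MitoPositive against MitoNegative comparison is filled.

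In MitoNegative cells 2 genes depended on whether the replicate letter entered the fit. Residuals of same-letter libraries of MitoNegative and monoculture correlated only weakly, at 0.213, 0.153 and 0.111. These values lay above the rule of 0.1, so the letters were taken to pair the libraries, which remains an assumption. Rel was at log2 0.39 ± 0.168 (SE, edgeR adjusted p = 0.10) without the letter and at 0.41 ± 0.0821 (edgeR adjusted p = 0.00209) with the letter as a block. It was higher in MitoNegative in 3 of 3 letters, by 0.38, 0.20 and 0.67 on the log2 scale. Nfkbid was at -0.37 ± 0.162 (SE, edgeR adjusted p = 0.0919) without the letter and at -0.36 ± 0.108 (edgeR adjusted p = 0.0186) with the block. With the block 7 of the 10 genes were higher and 1 was lower, where 44.9% of all genes passed, 23.5% as higher and 21.5% as lower. Rela, at 0.08 ± 0.0605 (edgeR adjusted p = 0.319), and Nfkb1, at 0.05 ± 0.0659 (edgeR adjusted p = 0.621), passed in neither fit.

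MitoPositive and MitoNegative cells came from the same kind of co-culture, and the comparison asked what went with the label. None of the 10 genes passed edgeR's test between them. None passed with DESeq2 or limma voom, and 1 of them, Relb, had an unadjusted p under 0.05 by edgeR, as had 10.5% of all genes. Of all genes tested 0.165% passed, and the median log2 fold change was -0.09 over the 10 genes and -0.00 over all genes. Without overlap of CPM, 3 genes were lower in MitoPositive cells and none was higher, against 9.55% lower and 10.5% higher, 20.0% in all, of the genes tested. These were Rel, Relb and Nfkbia.

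Of the 10 genes Rel showed the most even difference across the letters. Within letters B, C and D its log2 CPM, MitoPositive minus MitoNegative, was -0.39, -0.35 and -0.38. The spread within each group, with C highest and D lowest, was thus larger than the spread of the differences. Without the letter its log2 fold change was -0.37 ± 0.167 (SE, edgeR adjusted p = 0.487), and with the letter as a block it was -0.38 ± 0.0818 (edgeR adjusted p = 0.0443). Rel was then the 1 member called, where the block called 2.34% of all genes, 1.08% as lower. Same-letter libraries of the sorted groups deviated together more closely than those of the other comparisons.

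On the same scale Relb differed by -0.26, -0.28 and -0.12 within the letters, and its fitted log2 fold change was -0.22 ± 0.0689 (SE, edgeR adjusted p = 0.241, and 0.119 with the block). Nfkbia differed by -0.19, -0.21 and -0.14, and its fitted value was -0.18 ± 0.0884 (SE, edgeR adjusted p = 0.511, and 0.162 with the block). Bcl3 and Nfkbid were also lower in 3 of 3 letters, though their groups overlapped. The differences were -0.15, -0.16 and -0.10 for Bcl3 and -0.02, -0.14 and -0.17 for Nfkbid. Tnfaip3 was higher in 3 of 3 letters, by 0.11, 0.03 and 0.11. Apart from Rel none of these passed with the block over all 9 libraries. A fit of the sorted groups' 6 libraries alone with the block called 2810 genes, or 18.2% of those tested, counting both directions. In that fit Rel, Relb, Nfkbia and Bcl3 passed as lower.

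**Figure D3:**
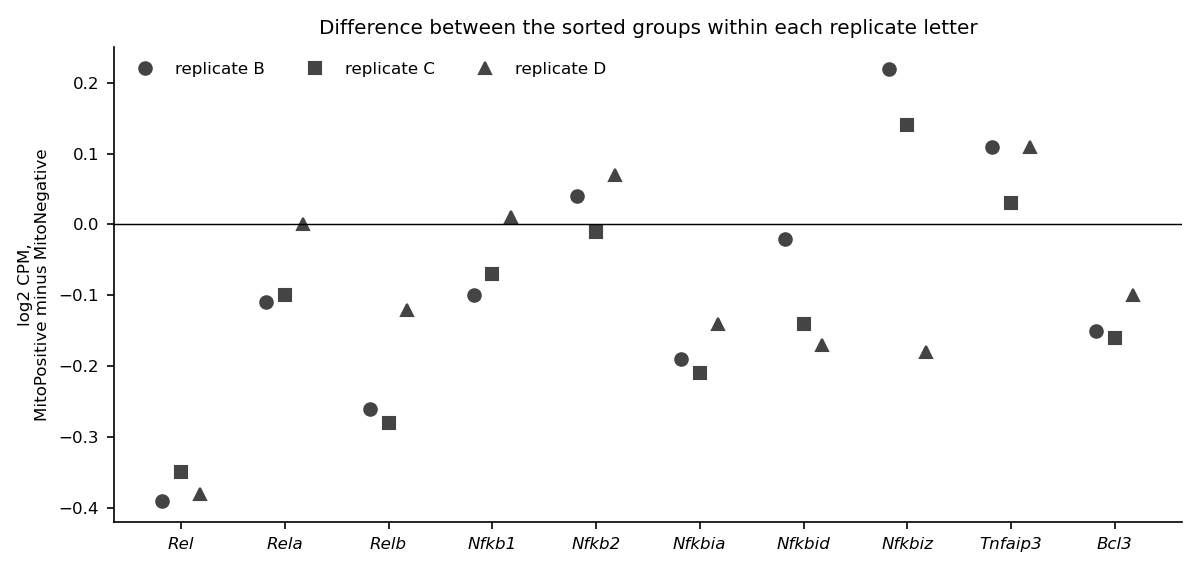
Difference in log2 CPM, MitoPositive minus MitoNegative, within replicate letters B, C and D for each gene; the line marks no difference. The points of Rel sit together between -0.39 and -0.35, while those of Nfkbiz range from -0.18 to 0.22.

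Because the subunits pair with each other, their levels were also expressed as a share of the summed CPM per kb of the 5 subunit genes in each library. Nfkb2 held 27.8%, 29.5% and 27.7% in MitoPositive libraries, 25.1%, 27.6% and 26.1% in MitoNegative libraries and 16.0%, 21.8% and 18.2% in monoculture libraries B, C and D. Relb held 11.9%, 11.1% and 11.7% in MitoPositive libraries, 13.2%, 12.5% and 12.6% in MitoNegative libraries and 7.43%, 8.54% and 8.05% in monoculture libraries. Both non-canonical shares lay above the monoculture range in every co-cultured library. Nfkb1 averaged 29.1% ± 0.693 in MitoPositive, 28.7% ± 0.742 in MitoNegative and 35.7% ± 2.57 in monoculture cells (SD, n = 3 each). Rela averaged 25.7% ± 0.395 in MitoPositive, 25.7% ± 0.346 in MitoNegative and 31.2% ± 2.03 in monoculture cells. The size of each share depends on the division by length. As shares of CPM without it, Nfkb1 held 54.3%, 53.5% and 55.6% in MitoPositive libraries B, C and D. In monoculture libraries it then held 64.8%, 58.7% and 63.4%. All 15 differences between groups kept their sign without the division. The shares add up to a fixed sum, so they cannot all rise, and in CPM Rela and Nfkb1 overlapped between the groups. Rel averaged 5.29% ± 0.535 in MitoPositive, 6.52% ± 0.396 in MitoNegative and 6.38% ± 1.53 in monoculture cells. The exact two-sided permutation test of 3 against 3 libraries cannot go below p = 0.10. The permutation test gave that value for Relb, Nfkb1, Nfkb2 and Rela in each co-cultured group against monoculture and for Rel, Relb and Nfkb2 between the sorted groups, and Benjamini-Hochberg adjustment over the 15 tests gave p = 0.136. No share difference could therefore pass a threshold of 0.05 by this permutation test.

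**Figure D4:**
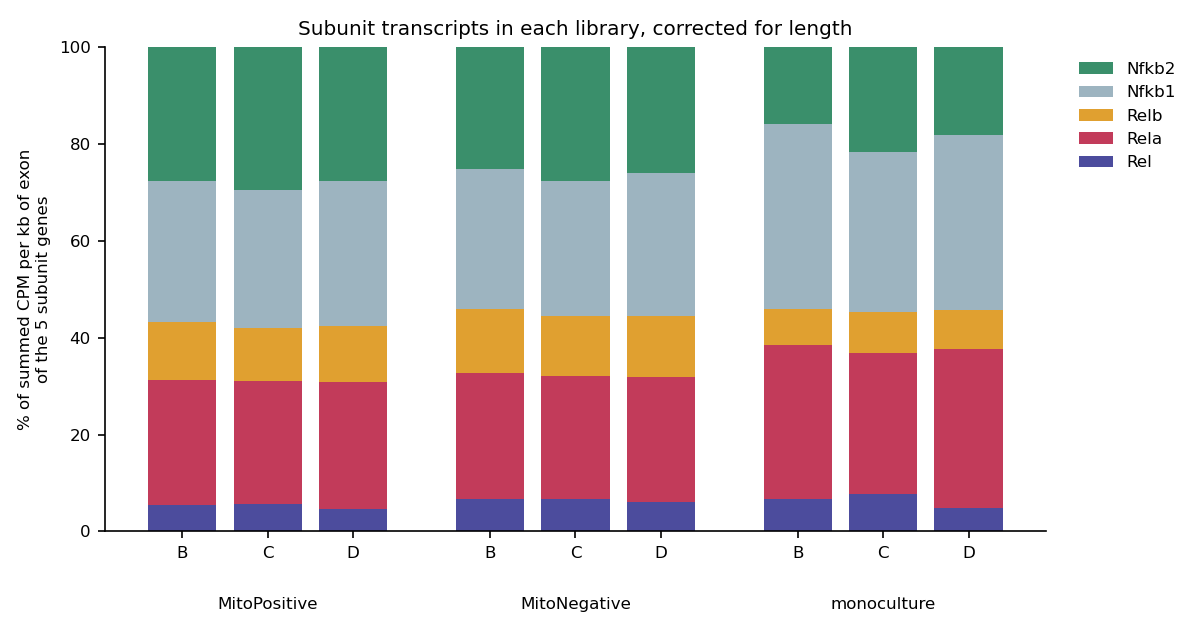
Share in % of the summed CPM per kb of exon taken by each of the 5 subunit genes, 1 stacked bar per library, labelled by replicate letter under its group. The Nfkb2 segment takes between 25.1% and 29.5% in co-cultured libraries and between 16.0% and 21.8% in monoculture.

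The genes whose course over the 9 libraries most resembled that of Tnfaip3, by the root mean square difference of mean-centred log2 CPM, were Dock9 (0.0986), Ddias (0.123) and Ifrd1 (0.143), where the median over all genes was 0.775. Dock9 averaged 151 ± 1.90 CPM in MitoPositive, 137 ± 11.2 CPM in MitoNegative and 48.3 ± 5.99 CPM in monoculture cells. For Nfkbid, the member with the fall, they were Filip1l (0.0962), Adcy6 (0.0970) and Sfpq (0.105), where the median was 0.356. Sfpq, an RNA-binding protein gene, averaged 220 ± 13.7 CPM in MitoPositive, 232 ± 28.3 CPM in MitoNegative and 295 ± 34.8 CPM in monoculture cells.

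The rest of the pathway was read from 5 lists, also chosen with earlier results of these data known. Their counts stand against all genes tested, of which 22.3% were higher and 19.9% lower in MitoPositive cells, with a median of 0.00. In MitoNegative cells 20.6% of all genes were higher and 18.3% lower, with a median of 0.01. Among 21 receptors that feed NF-kappaB, 11 were higher and 2 lower in MitoPositive cells than in monoculture, and 11 were higher and 3 lower in MitoNegative cells. Their median log2 fold change was 1.0 in MitoPositive and 0.77 in MitoNegative cells. The receptors higher in both groups included Il1r1, Ltbr and Il1r2, at only 0.145, 0.203 and 0.922 CPM in MitoPositive cells. Tnfrsf4, the costimulatory receptor OX40, averaged 44.7 ± 3.98 CPM in MitoPositive, 34.9 ± 3.24 CPM in MitoNegative and 9.24 ± 2.88 CPM in monoculture cells (log2 2.27 ± 0.203 and edgeR adjusted p = 3.95e-05 in MitoPositive). Il18rap, a chain of the interleukin-18 receptor, averaged 78.1 ± 19.0 CPM in MitoPositive, 53.9 ± 4.41 CPM in MitoNegative and 18.3 ± 1.72 CPM in monoculture cells (log2 2.10 ± 0.173, edgeR adjusted p = 2.22e-05 in MitoPositive). Tlr7, an endosomal RNA sensor, averaged 15.1 ± 8.28 CPM in MitoPositive, 20.0 ± 11.0 CPM in MitoNegative and 3.27 ± 0.545 CPM in monoculture cells, and its rise in MitoPositive cells missed the threshold without monoculture D (edgeR adjusted p = 0.0553). The costimulatory receptor Cd27 fell, averaging 156 ± 20.7 CPM in MitoPositive, 177 ± 13.6 CPM in MitoNegative and 280 ± 30.3 CPM in monoculture cells. Tnfrsf14 fell in the same way, averaging 24.5 ± 1.05 CPM in MitoPositive, 26.1 ± 1.57 CPM in MitoNegative and 36.2 ± 2.92 CPM in monoculture cells. Cd28, the main costimulatory receptor of T cells, was at 375 ± 19.4 CPM in MitoPositive, 297 ± 9.87 CPM in MitoNegative and 383 ± 3.57 CPM in monoculture cells, and its fall passed in MitoNegative cells (log2 -0.37 ± 0.0597, edgeR adjusted p = 0.000589).

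Of 15 listed ligands 13 were measured, and 8 were higher and 2 lower in MitoPositive cells than in monoculture. In MitoNegative cells 6 were higher and 1 was lower, or 6 and 3 with the replicate block. The ligands higher in both groups included Cd70, Il1a and Il1b, at only 0.194, 0.166 and 0.212 CPM in MitoPositive cells. The median log2 fold change of the ligands was 0.63 in MitoPositive and 0.23 in MitoNegative cells. Tnfsf4, the ligand OX40L, averaged 51.5 ± 4.52 CPM in MitoPositive, 29.0 ± 2.45 CPM in MitoNegative and 1.70 ± 0.458 CPM in monoculture cells. Without the block it was the 1 gene of the lists that passed between the sorted groups (log2 0.83 ± 0.123 SE, edgeR adjusted p = 0.0460). That call was lost without MitoPositive B or C, without any 1 of the MitoNegative libraries, and without monoculture C. Among single libraries the edgeR adjusted p was highest, 0.267, without MitoPositive C. The call was also lost without letter B or C, and the adjusted p was highest of all without letter C. Between the sorted groups an unadjusted p under 0.05 was reached by 3 ligands, 6 receptors, 1 gene of the signal relay, 2 other inhibitory genes and 6 target genes, against 10.5% of all genes. With the replicate letter as a block, which called 2.34% of all genes, 1 ligand, 1 receptor, 2 other inhibitory genes and 2 target genes passed and none of the signal relay. The sorted groups alone with the block, which called 18.2% of all genes, gave 4 ligands, 10 receptors, 8 genes of the signal relay, 4 other inhibitory genes and 12 target genes. DESeq2 called 1 ligand, 2 receptors, 2 other inhibitory genes and 3 target genes there, and none of the signal relay, against 3.22% of the 12969 genes it gave an adjusted p. Tnf itself averaged 6.72 ± 1.05 CPM in MitoPositive, 5.17 ± 0.309 CPM in MitoNegative and 2.97 ± 0.383 CPM in monoculture cells. Tnfsf14 (LIGHT) fell to 3.77 ± 0.608 CPM in MitoPositive and 3.91 ± 0.705 CPM in MitoNegative cells, against 7.99 ± 1.59 CPM in monoculture. Ltb, which encodes lymphotoxin-beta, averaged 1300 ± 71.7 CPM in MitoPositive and 1591 ± 87.6 CPM in monoculture cells, a fall that passed the test (edgeR adjusted p = 0.0174, and 0.0747 without MitoPositive D).

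Among 30 genes of the IKK complex and signal relay, 10 were higher and 10 lower in MitoPositive cells than in monoculture, and 10 were higher and 8 lower in MitoNegative cells. Their median log2 fold change was -0.02 in MitoPositive and 0.02 in MitoNegative cells. Irak2, a kinase that relays interleukin-1 and Toll-like receptor signals, averaged 68.1 ± 0.417 CPM in MitoPositive, 77.7 ± 3.11 CPM in MitoNegative and 33.7 ± 5.55 CPM in monoculture cells. Birc3, a ubiquitin ligase and known target gene, rose to 104 ± 7.46 CPM in MitoPositive and 95.1 ± 6.08 CPM in MitoNegative cells, against 66.1 ± 2.99 CPM in monoculture. Map3k14, the kinase NIK that starts processing of the Nfkb2 product, fell to 50.4 ± 4.78 CPM in MitoPositive and 55.1 ± 3.91 CPM in MitoNegative cells, against 73.2 ± 2.31 CPM in monoculture (log2 -0.54 ± 0.0753 and edgeR adjusted p = 0.000154 in MitoPositive). Traf5, an adaptor of TNF-family receptors, fell as well, with a log2 fold change of -0.96 ± 0.0864 in MitoPositive and -0.77 ± 0.0859 in MitoNegative cells.

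Of 16 other inhibitory genes, 6 were higher and 1 lower in MitoPositive cells than in monoculture, and 5 were higher and none lower in MitoNegative cells. Their median log2 fold change was 0.06 in both. Zc3h12a, the RNA-degrading enzyme Regnase-1, rose to 45.5 ± 3.68 CPM in MitoPositive and 38.0 ± 3.70 CPM in MitoNegative cells, against 16.5 ± 3.67 CPM in monoculture. Nfkbie, which encodes the cytoplasmic inhibitor IkappaB-epsilon, rose to 67.4 ± 1.96 CPM in MitoPositive and 79.3 ± 2.91 CPM in MitoNegative cells, against 50.1 ± 2.47 CPM in monoculture. Tnip3, a partner of A20, averaged 42.6 ± 2.06 CPM in MitoPositive, 31.3 ± 3.30 CPM in MitoNegative and 28.9 ± 1.76 CPM in monoculture cells, and it passed against monoculture in MitoPositive cells (log2 0.56 ± 0.0808, edgeR adjusted p = 0.000191). Between the sorted groups the log2 fold change of Tnip3 was 0.44 ± 0.0805 (edgeR adjusted p = 0.0574).

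Of 35 listed target genes 33 were measured. In MitoPositive cells 20 were higher and 2 lower than in monoculture, and in MitoNegative cells 18 were higher and 2 lower. Their median log2 fold change was 0.81 in MitoPositive and 0.76 in MitoNegative cells. The targets higher in both groups included Vcam1 and Mmp9, at only 0.411 and 0.384 CPM in MitoPositive cells. Ifng, the effector cytokine interferon-gamma, averaged 142 ± 68.3 CPM in MitoPositive, 71.3 ± 17.0 CPM in MitoNegative and 4.04 ± 1.03 CPM in monoculture cells. Nos2, which encodes an inducible nitric oxide synthase, averaged 5.07 ± 1.16 CPM in MitoPositive, 4.83 ± 1.27 CPM in MitoNegative and 0.187 ± 0.0423 CPM in monoculture cells. Il6, a cytokine, and Cxcl10, a chemokine, are genes that stromal cells can also express. Il6 averaged 3.95 ± 1.54 CPM in MitoPositive, 6.27 ± 2.94 CPM in MitoNegative and 0.116 ± 0.130 CPM in monoculture cells. Cxcl10 averaged 12.6 ± 7.42 CPM in MitoPositive, 16.9 ± 10.4 CPM in MitoNegative and 0.529 ± 0.0856 CPM in monoculture cells. For these genes the stromal marker sums of at most 28.0 CPM are of a similar size, and the part of stromal RNA was not tested. Ccl5, a chemokine of effector T cells, fell to 33.7 ± 6.17 CPM in MitoPositive and 36.6 ± 2.78 CPM in MitoNegative cells, against 98.5 ± 28.5 CPM in monoculture. Cflar, an apoptosis inhibitor, fell to 89.6 ± 5.74 CPM in MitoPositive and 94.7 ± 4.29 CPM in MitoNegative cells, against 129 ± 10.8 CPM in monoculture.

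**Figure D5:**
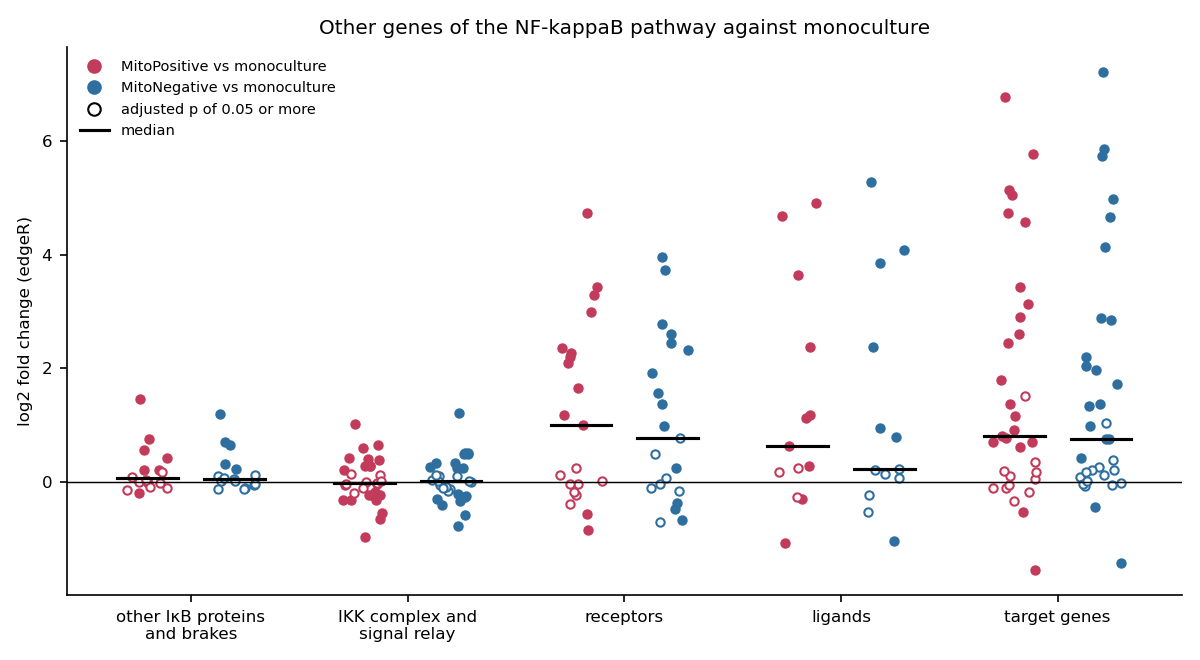
Log2 fold change against monoculture of each measured gene in the 5 pathway lists, MitoPositive left and MitoNegative right within each list; filled points passed an adjusted p of 0.05 (edgeR, n = 3 per group), and the black line is the median. The medians of the receptors (1.0 and 0.77) and target genes (0.81 and 0.76) lie above 0, while those of the signal relay lie at -0.02 and 0.02.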

How the data were processed

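Total RNA from sorted T cells was ribosomal RNA depleted and sequenced, per the labels' protocols. The deposited raw counts per gene were made with bcl2fastq, cutadapt, STAR 2.7 and featureCounts against GRCm38, per the submitters' processing notes, which also name DESeq2. Strandedness and the annotation release are not given in the sources used here. The table held 99 spike-in entries, all with 0 counts, which were left out. A second deposited table of filtered counts was not used.

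Tests used edgeR 4.0.16 under R 4.3.3 (filterByExpr, minimum count 10 and minimum total 15, TMM scaling, robust quasi-likelihood fit of all 9 libraries by group, 6 residual degrees of freedom). P-values were adjusted by Benjamini-Hochberg over 15711 genes, with a threshold of 0.05. CPM used TMM-scaled library sizes. The SE was taken from the log2 fold change and its F statistic. Alternatives used DESeq2 1.42.0 and limma 3.58.1. Scripts were tested on simulated data. Libraries of a group differed by more than sampling noise.

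Same-letter residuals correlated at 0.402, 0.339 and 0.459 between MitoPositive and MitoNegative and at 0.213, 0.153 and 0.111 between MitoNegative and monoculture for letters B, C and D, all above 0.1, so these letters were taken as pairs. Between MitoPositive and monoculture they were 0.248, 0.0521 and 0.163, which did not meet that rule. The block fit had 4 residual degrees of freedom.

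The members and lists were chosen with earlier results of these data known. All members were named, with up to 3 higher and 3 lower genes per list and comparison (largest changes among those passing with mean log2 CPM of at least 1), of which the text gives examples, and the 3 genes most like the member with the largest rise and the largest fall.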

Additional observations from a re-analysis of the deposited data

Results flagged for a closer look

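Tnfsf4, which encodes OX40L, passed the test between the sorted groups when all 9 libraries were used. Its log2 fold change was 0.83 ± 0.123 (SE, n = 3 each, edgeR adjusted p = 0.0460), with 51.5 ± 4.52 CPM in MitoPositive and 29.0 ± 2.45 CPM in MitoNegative cells (SD). The call was lost without any 1 of 6 of the 9 libraries, with edgeR adjusted p-values between 0.0669 and 0.267. It was also lost without letter B (0.198) and without letter C (log2 0.82), where the adjusted p was highest.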

How the results depend on the processing

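Relb, Nfkb2, Nfkbiz, Tnfaip3 and Bcl3 passed as higher against monoculture, in both co-cultured groups, under every alternative run: DESeq2's size factors, total counts, no filter, DESeq2, limma voom, the replicate block, only the groups compared, and leaving out each library or letter. Nfkbid missed in MitoPositive cells with total counts as well (log2 -0.46, edgeR adjusted p = 0.0607). Rel in MitoNegative cells passed against monoculture with DESeq2 (log2 0.39, DESeq2 adjusted p = 0.0323), without monoculture C (0.57, edgeR 0.0110) and without letter C (0.51, edgeR 0.0378). Leaving out libraries gave 4122 to 6695 genes called in MitoPositive against monoculture and 3495 to 6037 in MitoNegative against monoculture, each lowest without letter C.

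Between MitoPositive and MitoNegative, 26 genes were called. The count was 15 with DESeq2's size factors, 14 with total counts, 171 with no filter, 418 with DESeq2, 367 with the replicate block, 65 with only the groups compared, 2810 with those and the block, and 0 to 120 with libraries left out. Members called were 1 with the replicate block and 4 with only the groups compared and the block. The paired fit changed no other member's call beyond those named in the results.

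Small differences changed sign. For Nfkb1 in MitoPositive against monoculture the log2 value was 0.03 with total counts, 0.02 with no filter and 0.01 with only the groups compared, with or without the block. With libraries left out, log2 values against monoculture ran from -0.15 to 0.20 for Rel, -0.04 to 0.07 for Rela and -0.05 to 0.07 for Nfkb1 in MitoPositive, and from -0.01 to 0.10 for Nfkb1 in MitoNegative. Between the sorted groups they ran from -0.02 to 0.12 for Nfkb2, -0.02 to 0.19 for Nfkbiz and -0.0043 to 0.16 for Tnfaip3. Share differences ran from -0.70 to 0.81 percentage points for Rel in MitoNegative against monoculture, and from -0.17 to 0.23 for Rela and -0.03 to 0.70 for Nfkb1 between the sorted groups. The causes were not tested. The lowest count of a member in any library was 528. The same alternatives for the list genes were added after seeing the data; named calls lost, beside those given in the results, were Ccl5 in MitoNegative cells without letter B (edgeR adjusted p = 0.0532) and in MitoPositive cells with only the groups compared and the block (0.0590), Cxcl10 in MitoNegative cells without letter C (0.0517), Tlr7 without letter C in MitoPositive (0.129) and MitoNegative cells (0.103), and Ltb in MitoPositive cells without letters B (0.0862) and C (0.0705). Of the genes most like Nfkbid in MitoPositive cells, Sfpq was lost without letter D (0.0808), Adcy6 without letter C (0.114), and Filip1l with no filter (0.110), without MitoPositive B (0.0784) or monoculture C (0.0548), and without letters C (0.0750) and D (0.0695).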
